A study of Mus musculus with 33 samples.

Results

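Libraries of the *Nanog* mutant clones on day 8 of differentiation were compared with wild-type libraries of day 6, to ask gene by gene whether the mutant cells had gone past, had not reached, or had left the state that wild-type cells held on day 6. The comparison took 3 libraries of ΔK9.1 and 3 of ΔK9.2, all of day 8, and 2 libraries of E14Tg2a of day 6. These are 8 of the 33 libraries of the series, chosen by line and day only, with no measured value used. E14Tg2a is a wild-type mouse embryonic stem cell (ESC) line of the 129/Ola strain. ΔK9.1 and ΔK9.2 were derived from it by a homozygous Crispr/Cas9 deletion of the stretch between the *Nanog* enhancer and promoter, and each is a single clone. Both groups carry the same background and received the same treatment, embryoid body (EB) differentiation in medium with fetal calf serum and no LIF, the cytokine that sustains ESC self-renewal. The days differ by design, 8 for the clones and 6 for the wild type. By the study's methods, cells of days 6 and 8 had been replated on gelatine after day 4. Day 6 of E14Tg2a holds replicates 2 and 3, and replicate 1 of that day is not analysed here.

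*Nanog* encodes a homeodomain transcription factor that promotes ESC self-renewal, and its silencing accompanies the exit from pluripotency. In EBs, cells lose the naive network, pass through a formative epiblast-like state, and then turn on the genes of the primitive streak, the embryonic structure in which mesoderm and definitive endoderm arise. Streak genes such as *Eomes* and *T* are on only for a short time, whereas later genes of mesoderm, mesenchyme and the *Hox* clusters accumulate. Extra-embryonic endoderm, the lineage of the yolk sac that expresses *Gata6* and *Afp*, also forms in EBs. A day 8 culture that only lags would be found on this path at an earlier point, whereas a culture on another course would lie beside it.

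Values are in TPM, the share of a gene's transcripts among those of its library, corrected for transcript length. The 8 libraries listed between 13270 and 13795 genes at 1 TPM or more. The number of reads behind a value cannot be read from TPM. Differences are given on log2(TPM + 1), a scale that understates the change of low genes, as the mean of both clones minus E14Tg2a day 6. A gene is called changed at an adjusted p under 0.05 with an absolute difference above 1, by limma with Benjamini-Hochberg adjustment over all 16336 genes, in a fit that takes the spread from all 33 libraries. With 6 libraries against 2, an exact two-sided rank-sum test of a single gene cannot go below p = 0.0714. Replicates are libraries of independent assays with the same line or clone, so the p-values cover the spread between assays of these clones only. In such bulk cultures, fewer cells of a type and less RNA per cell cannot be told apart.

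The direction of the wild-type path was taken from libraries outside the comparison of clones with day 6. E14Tg2a of day 8 was set against E14Tg2a of day 4, and 2043 genes rose (12.5% of those tested) and 1185 fell (7.25%). Over the rising genes, the 2 libraries of day 6 lay 0.06 above and below their own mean. The ΔK9.1 libraries of day 8 lay at a median of 0.401, 0.738 and 0.075 above that mean and those of ΔK9.2 at 0.0323, 0.437 and 0.326. E14Tg2a on day 8, whose libraries were used to choose these genes, stood at 0.735, 1.14 and 0.788. ΔK9.2 replicate 1 was thus within the range of day 6, ΔK9.1 replicate 2 just inside that of day 8, and the other 4 clone libraries lay between. Over the falling genes the 3 ΔK9.1 libraries lay at -0.38, -0.457 and 0.0917 and the ΔK9.2 libraries at -0.247, -0.413 and -0.147, against -0.529 to -0.69 for day 8 of E14Tg2a.

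**Figure D1:**
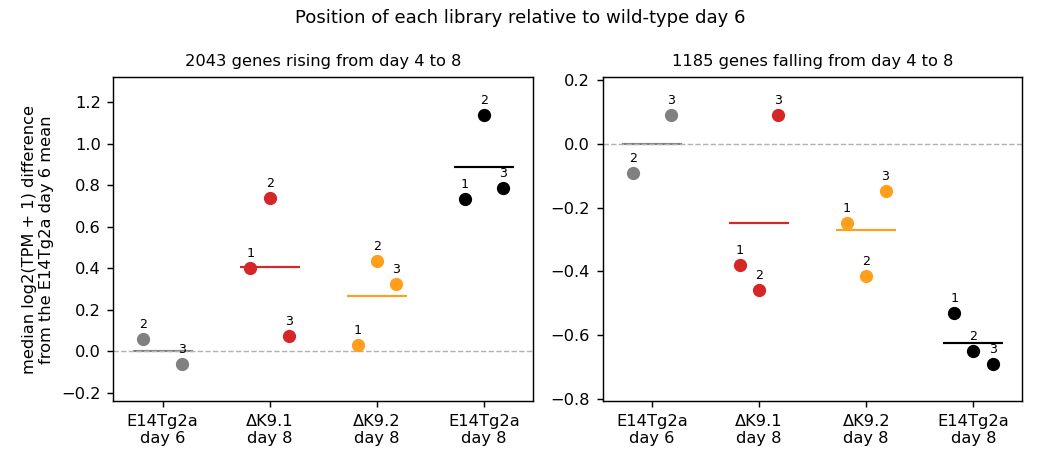
Each point is 1 library, numbered by replicate, and the y axis is the median log2(TPM + 1) difference from the E14Tg2a day 6 mean over the 2043 genes that rose (left) or the 1185 that fell (right) in E14Tg2a from day 4 to day 8. Lines are group means, and ΔK9.1 replicate 3 and ΔK9.2 replicate 1 are the clone libraries nearest to day 6 among the rising genes, at 0.075 and 0.0323.

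ΔK9.1 replicate 3 and ΔK9.2 replicate 1 were nearest to day 6 over the rising genes and in ESC markers. They are called below the clone libraries that stood apart. The summed level of the 5 defining ESC markers (*Nanog*, *Esrrb*, *Zfp42*, *Pou5f1*, *Sox2*) was 879 and 968 TPM in them, 329 to 597 TPM in the other 4, 1083 and 1232 TPM in E14Tg2a day 6, and 143 to 285 TPM in E14Tg2a day 8. The summed level of the mesoderm markers (*T*, *Mixl1*, *Hand1*, *Kdr*) was 128 TPM in ΔK9.1 replicate 3 and 273 to 570 TPM in the other 5. The same sum was 510 and 399 TPM in E14Tg2a day 6. Over the falling genes ΔK9.2 replicate 1, at -0.247, did not stand apart, since ΔK9.2 replicate 3 lay nearer to day 6 at -0.147. ΔK9.1 replicate 3 and ΔK9.2 replicate 1 were picked for nearness to day 6 after the data were seen. Leaving out both therefore favours calls past day 6, and such counts are no added support. Where leaving out both changed a count of calls by over 1.5 times, that count is given.

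Day 8 clones differed from wild-type day 6 in 356 genes (2.18%), of which 170 were higher (1.04%) and 186 lower (1.14%). Of these, 194 had moved in the direction of the wild-type path and are called past day 6, 133 of them rising and 61 falling. Another 12 differed against that direction and are called short of day 6, 1 higher and 11 lower. The remaining 150, 36 higher and 114 lower, belonged to genes whose wild-type level on days 4 and 8 did not differ by the same test, and are called off the course. Over the 114 lower and the 36 higher genes off the course, the median of E14Tg2a day 8 minus day 6 was -0.76 and 0.86, beside 0.05 over all genes, but the class was chosen on the same day 6 libraries and nothing is read from these medians. The median difference of the clones from day 6 was 0.05 over all genes, with a median residual SD of 0.24.

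Most genes of the wild-type path were neither past nor short. Of the 2043 rising genes, 6.51% were past day 6, 0.538% were short of it and 53.3% were level with it, meaning that the 95% confidence interval of the difference lay within 1 log2 unit. The other 39.7% could not be placed at this precision. A margin of 1 exceeds the median E14Tg2a step from day 6 to day 8, 0.91 up for rising and 0.62 down for falling genes. A level gene can therefore also be close to E14Tg2a day 8, and the matching share for that day was not computed. Of the 1185 falling genes, 5.15% were past, 0.0844% short, 59.7% level and 35% undecided. The median rising gene lay 0.36 above day 6 in the clones, and 0.91 above it in E14Tg2a of day 8. The median falling gene lay 0.26 below day 6 in the clones and 0.62 below it in E14Tg2a of day 8, a comparison that shares the day 6 libraries. These genes were also chosen by their change in the same E14Tg2a day 8 libraries, which favours large values there, so the gap between clones and E14Tg2a day 8 is a description only.

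**Figure D2:**
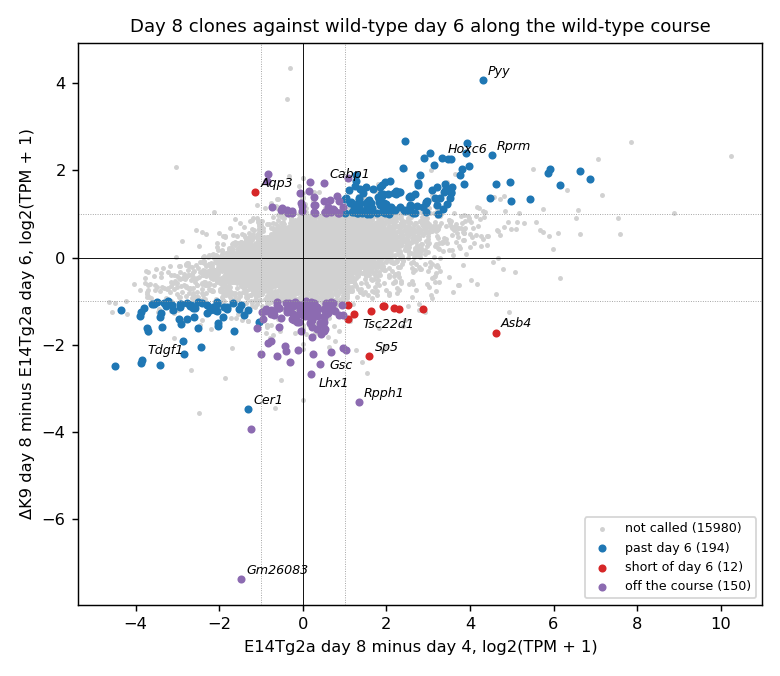
Each point is a gene, with the E14Tg2a difference between days 8 and 4 on the x axis and the difference between day 8 clones and E14Tg2a day 6 on the y axis, both in log2(TPM + 1). Blue, red and purple mark the 194 genes past, the 12 short of and the 150 off the course, and dotted lines mark the threshold of 1.

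These counts rest on the pooled estimate of the spread and on few wild-type libraries. Fitted on the 8 libraries alone, 49 genes (0.3%) were called, 4 higher and 45 lower, with 8 past, 0 short and 41 off, although 2785 genes had an unadjusted p under 0.05. Of these, 16 also passed the fold threshold in the direction opposite to the path. Without E14Tg2a day 6 replicate 3, 54 genes were higher, 113 lower and 39 past, and without replicate 2, 59 were higher, 93 lower, 68 past and 80 off. Without ΔK9.2 replicate 2, 106 were higher and 128 past. In the other direction, 279 genes were higher and 322 past without ΔK9.1 replicate 3, 273 were higher without ΔK9.2 replicate 1, and 387 were higher and 404 past without both clone libraries that stood apart. A fit with a replicate block, which pairs libraries of the same replicate number, called 212 genes higher (1.3%) and 226 lower (1.38%). All 6 clone libraries lay above both day 6 libraries in 1943 genes (11.9%) and below both in 1353 (8.28%). Of the 133 past and rising genes 102 did so, and of the 61 past and falling genes 56. These genes were called on the same libraries, so the lack of overlap is no separate support. *Mcf2* at -1.001 and *Nup62cl* at 1.0017 were the called genes nearest to the fold threshold, and *Ppp1r3c* at 0.9987 and *Eml2* at 0.9979 were the nearest left outside it.

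*Nanog*, the gene next to the deletion (mm10, chr6:122707489-122714633), was at 122 and 140 TPM in E14Tg2a day 6. In the day 8 clones it ranged from 49.3 to 177 TPM with a median of 94.5, and in E14Tg2a day 8 from 22 to 34.6 TPM. The clones and day 6 overlapped, with ΔK9.1 replicate 3 above both day 6 libraries. The difference from day 6 was -0.49 ± 0.27 (SE, n = 6 and 2) and was not called (limma adjusted p = 0.283). None of the 15 listed naive genes was called by limma, with 3 at an unadjusted p under 0.05 and a median of -0.30. Of all genes, 22.6% had an unadjusted p under 0.05 in this fit, which is the share to read such counts against here and below. On this list E14Tg2a day 8 lay at -1.01. Without both clone libraries that stood apart, 1 of the 15 was called lower. *Esrrb*, an orphan receptor that sustains the naive state, was level with day 6 at -0.31 (interval -0.88 to 0.26), as was *Prdm14*, a repressor of the epiblast programme, at 0.01 (interval -0.53 to 0.55). *Prdm14* turned to a small negative value under 8 alternatives. *Zfp42* was at -0.63 (adjusted p = 0.217) and *Klf4*, low by day 6, at -0.44 (adjusted p = 0.259). *Zfp57*, a zinc-finger protein that protects imprints, was at -0.22 (interval -0.73 to 0.28). Against E14Tg2a of the same day, 6 of the 15 were higher in the clones (all genes 0.826%).

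General pluripotency factors were in part past day 6. Of the 10 listed genes 4 were lower than on day 6 (*Pou5f1*, *Tdgf1*, *Dppa2* and *Dppa4*), and the list median was -0.94. *Pou5f1*, which encodes OCT4, was at 848 and 959 TPM in E14Tg2a day 6 and between 198 and 789 TPM in the clones, with a median of 307. All 6 clone libraries were below both day 6 libraries, and the difference was -1.36 ± 0.32 (adjusted p = 0.00962). *Tdgf1*, a co-receptor for Nodal, was at 218 and 263 TPM on day 6 and at 25.4 to 130 TPM in the clones, with a median of 45.8. It fell by 2.34 on the log2 scale (SE 0.42, adjusted p = 0.00105) with no overlap, and was still 1.51 above E14Tg2a day 8. The annotated copy *Tdgf1-ps1* gave -2.41, but reads of such near-identical copies can be split between them and its value is uncertain. *Sox2* was level with day 6 at -0.24 (interval -0.93 to 0.44). The list had 0 calls in the fit on the 8 libraries alone, 1 without E14Tg2a day 6 replicate 2, 2 without replicate 3, and 6 without the clone libraries that stood apart.

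Among formative and primed epiblast genes, *Otx2* alone of 13 was called, while the means of all 13 lay below day 6 (43.3% of all genes did). *Otx2*, a transcription factor of the epiblast and anterior neural plate, was at 45.9 and 76.3 TPM on day 6 and at 8.8 to 45.7 TPM in the clones, with a median of 18.5. The difference was -1.68 ± 0.43 (adjusted p = 0.0182), and without E14Tg2a day 6 replicate 2 or replicate 3 the adjusted p was 0.0786 and 0.298. *Dnmt3b*, a de novo DNA methyltransferase, was at 156 and 225 TPM on day 6 and at 55.4 to 190 TPM in the clones. Its difference of -1.21 ± 0.40 missed the threshold (adjusted p = 0.0615), and passed it at -1.35 with the replicate block (adjusted p = 0.0201), as did *Foxd3* at -1.36 (adjusted p = 0.0256), which made 3 calls on this list. *Fgf5*, the classical epiblast ligand, spread from 1.58 to 50.8 TPM in the clones against 29.2 and 54.8 TPM on day 6, at -1.74 ± 0.65 (adjusted p = 0.104). *Dnmt3b* passed without ΔK9.1 replicate 3 at -1.31 (adjusted p = 0.0411) and without ΔK9.2 replicate 1 at -1.48 (adjusted p = 0.00867), and *Fgf5* without ΔK9.1 replicate 3 at -2.19 (adjusted p = 0.0149). Without both, 5 of the 13 were lower.

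**Figure D3:**
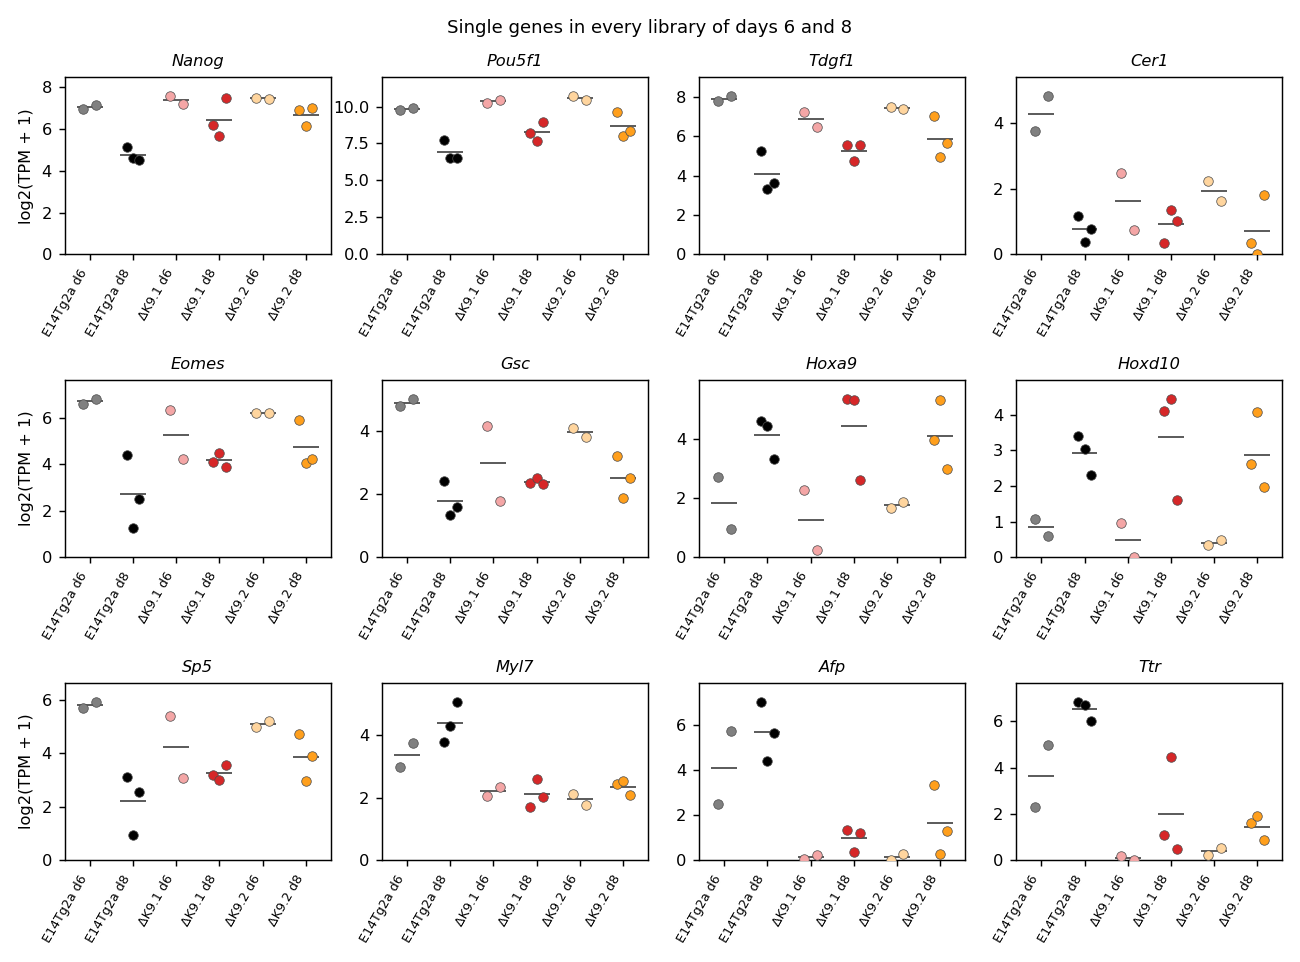
log2(TPM + 1) of 12 genes in each library of days 6 and 8 (y axes start at 0), with 1 point per library, lines at group means, and lines of cells and days on the x axis. *Cer1*, *Gsc* and *Sp5* are lower in all 6 day 8 clone libraries than in both E14Tg2a day 6 libraries, whereas *Nanog* and *Afp* overlap between them.

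Of 20 listed genes of the streak and early mesoderm, 7 were lower than on day 6 (*Eomes*, *Gsc*, *Lhx1*, *Tbx6*, *Wnt3a*, *Nodal* and *Lefty2*) and none higher. The list median was -1.45, against -2.46 in E14Tg2a day 8. *Eomes*, a T-box factor that specifies mesendoderm, was at 96.5 and 112 TPM in E14Tg2a day 6, and in the day 8 clones at 14 to 59.6 TPM with a median of 17. No clone library reached the day 6 level, and the nearest was ΔK9.2 replicate 1. The difference was -2.26 ± 0.54 (adjusted p = 0.0118), and the adjusted p was 0.119 and 0.151 without E14Tg2a day 6 replicate 2 and replicate 3. *Gsc*, a homeodomain factor of the anterior streak, was at 26.5 and 31.1 TPM on day 6 and at 2.68 to 8.15 TPM in the clones. It fell by 2.44 (SE 0.38, adjusted p = 0.000271), and it was among the genes called in the fit on the 8 libraries alone (adjusted p = 0.0353). *Lhx1*, a LIM homeodomain factor expressed in the same cells, was at 44.7 and 63 TPM on day 6 and at 4.89 to 17.1 TPM in the clones. Its difference was -2.67 ± 0.48 (adjusted p = 0.00113), or -2.43 without E14Tg2a day 6 replicate 3 (adjusted p = 0.0545).

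*T* (brachyury), the marker of the whole streak, was at 211 and 224 TPM on day 6 and at 29.7 to 218 TPM in the clones, and was not called (-2.02 ± 0.80, adjusted p = 0.126). In ΔK9.2 replicate 1, *T* (218 TPM) and *Mixl1* (78.2 TPM) were at the day 6 level, while the other 5 libraries held 2.97 to 21.6 TPM of *Mixl1* against 69.6 and 78.8 TPM on day 6. *Nodal* at -1.12 and its antagonist *Lefty2* at -1.58 were past day 6. *Wnt3*, the ligand that induces the streak, was at -0.85 ± 0.36 and not called (adjusted p = 0.149), and *Fgf8* was at -0.51 (adjusted p = 0.632), at 46.5 to 176 TPM in the clones against 148 and 177 TPM. The 7 calls became 3 without E14Tg2a day 6 replicate 2, 2 without replicate 3, 1 in the fit on the 8 libraries alone, 12 without ΔK9.2 replicate 1, and 10 with the replicate block, which added *Mixl1* at -2.71 (adjusted p = 0.0145), *Msgn1* at -2.39 (adjusted p = 0.0241) and *Dll1* at -1.74 (adjusted p = 0.0157).

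By the path between days 4 and 8, 5 of these 7 streak genes (*Eomes*, *Gsc*, *Lhx1*, *Tbx6* and *Wnt3a*) count as off the course, since their E14Tg2a levels on those days did not differ by the test. On day 6 itself the 4 clone libraries held *Eomes* at 17.6 to 81.2 TPM and *Gsc* at 2.47 to 16.7 TPM. Day 6 clones were therefore set against the mean of E14Tg2a days 4 and 8, a contrast chosen after the classes had been seen. It shares no library with the main comparison, but its E14Tg2a libraries also define the class off the course. It called 242 genes higher (1.48%) and 666 lower (4.08%). Of the 114 genes that were lower and off the course, 16 were higher in the day 6 clones by this contrast and 9 lower. Outside a stretch of chromosome 14 described further on, the numbers were 13 and 6 of 66. The 13 hold *Eomes* (2.72), *Lhx1* (2.00), *Gsc* (1.89), *Tbx6* (1.79) and *Wnt3a* (1.91) of the streak list, and also *Fst*, the activin antagonist follistatin, at 3.23, and *Apln*, the ligand apelin, at 2.81, both named after their values were seen.

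Definitive endoderm genes split in both directions. Of 10 listed genes, 5 were lower than on day 6 (*Cer1*, *Trh*, *Gsc*, *Otx2* and *Foxa2*) and *Pyy* was higher. *Cer1*, a secreted inhibitor of Nodal, BMP and WNT ligands, was at 12.5 and 27.6 TPM in E14Tg2a day 6 and at 0 to 2.54 TPM in the clones, with a median of 0.657. It fell by 3.48 (SE 0.44, adjusted p = 2.12e-05) and was 0.05 above E14Tg2a day 8. *Trh*, the precursor of thyrotropin-releasing hormone, was at 228 and 291 TPM on day 6 and at 19.9 to 81.5 TPM in the clones (-2.47 ± 0.42, adjusted p = 0.000625). *Pyy*, the gut hormone peptide YY, was listed at 0 and 0.518 TPM in E14Tg2a day 6 and reached 6.34 to 65.5 TPM in the clones, with a median of 18.8. Its difference of 4.07 ± 0.52 (adjusted p = 2.83e-05) was the largest among the 170 higher genes, with E14Tg2a day 8 at 37.6 to 55.1 TPM. Counts on this list were 1 higher and 3 lower without either day 6 library, and 0 higher and 1 lower (*Gsc*) in the fit on the 8 libraries alone, where *Pyy*, *Cer1* and *Trh* were not called.

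*Hox* genes encode homeodomain factors that give axial position, and the posterior groups come on later than the anterior ones. Of 18 measured posterior *Hox* genes 10 were higher than on day 6 and none lower, and the list median was 1.68, beside 1.45 in E14Tg2a day 8. In 4 of the 18 all clone libraries were above both day 6 libraries. *Hoxa9* was at 5.59 and 0.939 TPM in E14Tg2a day 6 and at 5.12 to 39.3 TPM in the clones, with a median of 26.2. The lowest clone library, ΔK9.1 replicate 3, lay below the higher day 6 library. The difference was 2.41 ± 0.58 (adjusted p = 0.0114). *Hoxd10* was at 1.11 and 0.507 TPM on day 6 and at 2.01 to 20.6 TPM in the clones, without overlap (2.29 ± 0.48, adjusted p = 0.00437). *Hoxc6* was at 3.02 and 0.593 TPM on day 6 and at 5.71 to 25.5 TPM in the clones (2.28 ± 0.42, adjusted p = 0.00151). Within these genes, ΔK9.1 replicates 1 and 2 and ΔK9.2 replicate 2 were the high libraries.

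The number of posterior *Hox* calls followed single libraries. All 18 were called without ΔK9.1 replicate 3 or without both clone libraries that stood apart, 5 without E14Tg2a day 6 replicate 2, 4 without ΔK9.1 replicate 1 or 2 or ΔK9.2 replicate 2, and 0 without E14Tg2a day 6 replicate 3 or in the fit on the 8 libraries alone. *Hoxc6* then gave 1.62 (adjusted p = 0.137) and *Hoxd10* 2.05 (adjusted p = 0.113) without E14Tg2a day 6 replicate 3. Of 14 anterior *Hox* genes, *Hoxd1*, *Hoxd3* and *Hoxd4* were higher, at 1.48, 1.76 and 1.89, and the median was 0.65. Calls on this list numbered 1 without E14Tg2a day 6 replicate 2, 0 without replicate 3 or in the fit on the 8 libraries alone, and 5 without both clone libraries that stood apart. *Halr1*, a long noncoding RNA near the *Hoxa* cluster (mm10, chr6:52102949-52113684), was at 7.54 and 5.61 TPM on day 6 and at 0 to 0.948 TPM in the clones, and fell by 2.48 (SE 0.38, adjusted p = 0.000209). It was also called in the fit on the 8 libraries alone (adjusted p = 0.0323).

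Other genes past day 6 were spread over functions. *Pgam2*, the muscle form of phosphoglycerate mutase, was at 7.46 and 2.75 TPM on day 6 and at 17.9 to 70.2 TPM in the clones, and rose by 2.67 (SE 0.38, adjusted p = 0.000117). It was also 1.11 above E14Tg2a day 8. *Rprm*, a p53 target that arrests the cell cycle, was at 12.5 and 7.54 TPM on day 6 and at 24.2 to 119 TPM in the clones (2.35 ± 0.41, adjusted p = 0.000813, or 0.0572 without E14Tg2a day 6 replicate 3). *Grb10*, an imprinted adaptor that restrains insulin signalling, was at 39.3 and 36.8 TPM on day 6 and at 85.7 to 344 TPM in the clones. The 3 ΔK9.1 libraries held 160 to 344 TPM and the 3 of ΔK9.2 85.7 to 128 TPM. It rose by 2.06 (SE 0.35, adjusted p = 0.000625) and was 1 of the 4 genes called higher in the fit on the 8 libraries alone. Of 20 imprinted genes, *Grb10*, *Dlk1* (1.66) and *Igf2r* (1.14) rose, and the list median was 0.74 beside 1.39 in E14Tg2a day 8. The imprinted calls numbered 8 without both clone libraries that stood apart, 7 without ΔK9.1 replicate 3 and 1 without ΔK9.1 replicate 2 or E14Tg2a day 6 replicate 3.

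Genes of later mesoderm held 4 calls past day 6, 2 on the heart list and 2 on the mesenchyme list, and the heart list also held 2 calls short of it (*Myl7* and *Actc1*). The median was 0.41 for lateral and cardiac mesoderm, 0.45 for blood and endothelium and 0.58 for mesenchyme and matrix, where E14Tg2a day 8 stood at 1.39, 2.01 and 1.85. *Hand2*, a factor of heart and limb mesoderm, was at 17.4 and 8.01 TPM in E14Tg2a day 6 and at 16.4 to 133 TPM in the clones, with a median of 47.1 (1.80 ± 0.52, adjusted p = 0.0337). *Gata5* (1.46), *Snai2* (1.73), which drives epithelial to mesenchymal transition, and the collagen gene *Col6a1* (1.16) were also past day 6. None of the 20 blood and endothelial genes was called by limma, with 5 at an unadjusted p under 0.05. *Hbb-bh1*, an embryonic globin, was at 14.5 and 5.38 TPM on day 6 and spread from 1.26 TPM in ΔK9.2 replicate 1 to 1440 TPM in ΔK9.1 replicate 2 (2.33 ± 1.18, adjusted p = 0.242). *Kdr*, a receptor of blood and vessel progenitors, was at -0.25 ± 0.51 (adjusted p = 0.819). Without both clone libraries that stood apart, 6 genes of lateral and cardiac mesoderm, 6 of blood and endothelium and 7 of mesenchyme were higher. Without E14Tg2a day 6 replicate 2 or replicate 3, or in the fit on the 8 libraries alone, none was, so the calls of *Hand2*, *Gata5*, *Snai2* and *Col6a1* were lost.

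Set against E14Tg2a of day 8, these lists were lower in the clones. Of all genes 3.42% were called lower in that comparison, which shares the clone libraries, and among these lists 10 of 20, 13 of 20 and 13 of 23 genes were. Their medians were -1.16, -1.44 and -1.14.

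**Figure D4:**
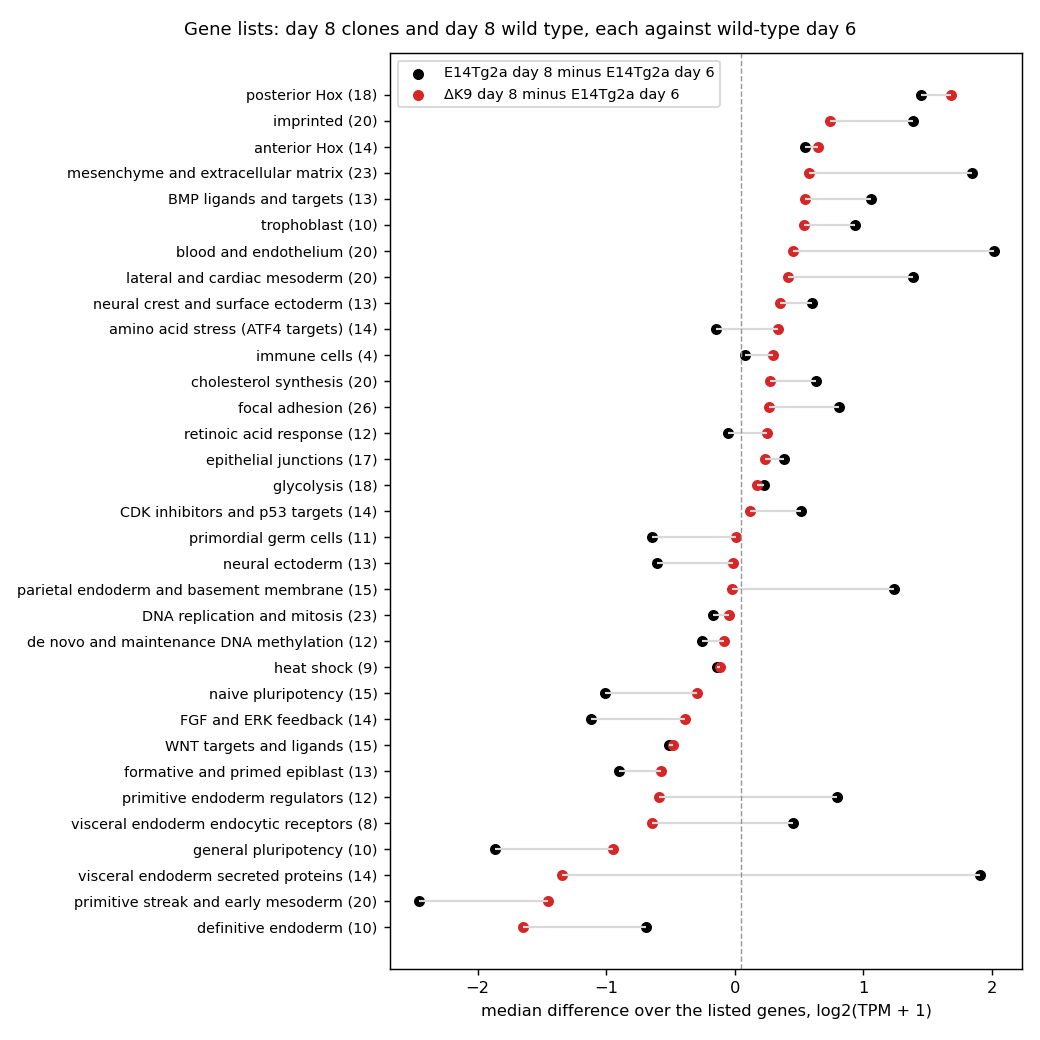
Median log2(TPM + 1) difference from E14Tg2a day 6 over the measured genes of each list (number in brackets), for the day 8 clones in red and for E14Tg2a day 8 in black. The dashed line is the median of all genes in the clones, 0.05, and visceral endoderm secreted proteins are the list where the black point (1.90) and the red point (-1.34) lie farthest apart.

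For lists of extra-embryonic endoderm, the medians of the clones and of E14Tg2a day 8 lay on different sides of day 6. Of 14 measured secreted proteins of the visceral endoderm 13 had a mean below day 6, with a median of -1.34, whereas E14Tg2a day 8 stood at 1.90. None was called against day 6 by limma, with 6 at an unadjusted p under 0.05. The defining markers (*Afp*, *Ttr*, *Apoa1*, *Amn*) summed to 12.8 and 105 TPM in the day 6 libraries, to 2.60 to 22.7 TPM in the clones and to 140 to 290.2 TPM in E14Tg2a day 8. With the replicate block, 5 of the 14 were lower than on day 6 (*Afp*, *Apoa1*, *Apoa4*, *Apob* and *Trf*), with *Afp* at -3.34 (adjusted p = 0.00408). Without the block, leaving out ΔK9.1 replicate 2, ΔK9.2 replicate 1 or both clone libraries that stood apart gave 1 call each. *Afp*, the yolk sac protein alpha-fetoprotein, was at 4.65 and 51.4 TPM in E14Tg2a day 6 and at 0.217 to 9.01 TPM in the clones. Only ΔK9.2 replicate 1 exceeded the lower day 6 library (-2.81 ± 0.99, adjusted p = 0.0814), and E14Tg2a day 8 held 20.4 to 129 TPM. *Ttr*, the thyroxine carrier transthyretin, was at 3.86 and 30.4 TPM on day 6 and at 0.4 to 20.9 TPM in the clones, where ΔK9.1 replicate 2 was the only library above 2.71 TPM (-1.90 ± 0.86, adjusted p = 0.183). *Spink1*, a protease inhibitor, was at 34 and 63.8 TPM on day 6 and at 3.24 to 10.7 TPM in 5 clone libraries, with 93.3 TPM in ΔK9.1 replicate 2. *Apoe*, also expressed in ESCs, was at 0.20 (interval -0.42 to 0.83). Against E14Tg2a of day 8, all 14 were called lower, at a median of -3.60.

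*Amn*, a receptor subunit of the visceral endoderm that takes up vitamin B12 with cubilin, was at 2.72 and 7.51 TPM on day 6 and at 0.0752 to 0.758 TPM in the clones. The groups did not overlap and the difference was -2.07 ± 0.73 (adjusted p = 0.0823). The fit on the 8 libraries alone called it (adjusted p = 0.0468), as did the replicate block (-2.52, adjusted p = 0.00278), which also called *Cubn*, cubilin itself (-2.16, adjusted p = 0.0196). Of 8 endocytic receptors none was called in the fit on all libraries, 2 had an unadjusted p under 0.05, and the median was -0.65. *Dab2*, a cargo adaptor, was at 11 and 33.6 TPM on day 6 and at 6.21 to 20.4 TPM in the clones (-0.84 ± 0.88, adjusted p = 0.614), and *Cldn6* was at -0.29 ± 0.37 (adjusted p = 0.692).

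All 12 listed regulators of primitive endoderm had a mean below day 6, with a median of -0.59, where 10 of the 12 had a higher mean in E14Tg2a day 8 than on day 6 (55.2% of all genes, list median 0.79). *Foxa2*, a forkhead factor of endoderm and node, was the 1 called, at 7.9 and 13.5 TPM on day 6 and 0.466 to 5.78 TPM in the clones, without overlap (-2.08 ± 0.51, adjusted p = 0.0138). It lost its call without either day 6 library. *Gata4* was at 46.6 and 37.5 TPM on day 6 and at 7.86 to 27.7 TPM in the clones, also without overlap but not called (-1.10 ± 0.71, adjusted p = 0.373). It lies in a stretch of chromosome 14 described further on, where most genes were below day 6. *Gata6* was at 19 and 20.2 TPM against 6.44 to 38.1 TPM (-0.25 ± 0.76, adjusted p = 0.887) and *Pdgfra*, a growth factor receptor, at 21.5 and 25.2 TPM against 12.1 to 36 TPM (-0.25 ± 0.66, adjusted p = 0.866). Both overlapped with day 6, *Gata6* was at 0.07 without ΔK9.1 replicate 3, and mesoderm expresses these genes as well. None of 15 basement membrane genes was called (5 at an unadjusted p under 0.05), while the replicate block called *Lama1* (-1.91, adjusted p = 0.0314) and *Srgn* (-3.36, adjusted p = 0.00234) lower. Without both clone libraries that stood apart 1 was called higher. The median was -0.02 beside 1.23 in E14Tg2a day 8, with *Sparc* at -0.02 ± 0.51 (adjusted p = 0.996) and *Fn1* at -0.74 ± 0.43 (adjusted p = 0.315).

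Only 12 genes lay on the far side of day 6 from the wild-type path, so that the clones were still short of it after 8 days. Of the 11 lower ones, however, 8 had a lower mean in E14Tg2a on day 8 than on day 6, and 4 of the 11 were called lower in that comparison (all genes 2.73%). Without E14Tg2a day 6 replicate 2 or 3, this class held 4 and 5 genes, and 0 in the fit on the 8 libraries alone.

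*Sp5*, a zinc-finger factor that is a direct target of WNT/β-catenin signalling (mm10, chr2:70474923-70477729), was at 51.7 and 60 TPM in E14Tg2a day 6 and at 6.81 to 25.5 TPM in the clones, with a median of 9.47. E14Tg2a day 8 held 0.936 to 7.64 TPM, which overlaps with the lowest clone library. The difference from day 6 was -2.26 ± 0.47 (adjusted p = 0.00406), and 0.0603 and 0.085 without replicate 2 and replicate 3 of that day. *Wnt2b*, a WNT ligand, was at 4.04 and 4.1 TPM on day 6 and at 0.275 to 1.94 TPM in the clones (-1.40 ± 0.20, adjusted p = 0.00011). *Lmo1*, a LIM-only cofactor, was at 8.41 and 6.89 TPM on day 6 and at 1.71 to 4.97 TPM in the clones (-1.22 ± 0.30, adjusted p = 0.0151, or 0.204 and 0.0981 without replicate 2 and replicate 3 of day 6). In these 3 genes the clones did not overlap with day 6, and E14Tg2a day 8 was below day 6 too. The promoters of the *Sp5* and *Tnfrsf19* genes are printed because they were the 2 of 11 promoters in this class with a match to the TCF motif CTTTGAT, the element that TCF/LEF factors bind in WNT targets. TCF was 1 of 15 motifs searched. Both strands were searched, the match or its reverse complement stands in capitals, and it lies in the promoters of 4.29% of 27025 genes and of 10 of the 240 called genes that have one in the table. Sequences are from RefSeq (GRCm38.p6), on the strand of the gene, from 250 bases before to 50 after the start, at chr2:70474673-70474972 and chr14:61037938-61038237.
Sp5: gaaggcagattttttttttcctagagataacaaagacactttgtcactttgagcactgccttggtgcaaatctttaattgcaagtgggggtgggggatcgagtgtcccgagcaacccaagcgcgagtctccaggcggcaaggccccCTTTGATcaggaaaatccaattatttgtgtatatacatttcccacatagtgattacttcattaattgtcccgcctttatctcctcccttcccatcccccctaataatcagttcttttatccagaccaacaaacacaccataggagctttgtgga
Tnfrsf19: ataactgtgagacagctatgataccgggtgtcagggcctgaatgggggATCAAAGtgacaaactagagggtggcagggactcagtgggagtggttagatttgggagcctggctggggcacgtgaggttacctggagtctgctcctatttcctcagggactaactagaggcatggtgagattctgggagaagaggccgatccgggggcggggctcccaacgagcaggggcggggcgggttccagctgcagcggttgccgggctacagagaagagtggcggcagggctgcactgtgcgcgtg

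The match begins 104 bases before the start in *Sp5* and 202 before it in *Tnfrsf19*, for which 2 promoters are listed. The printed promoter of *Tnfrsf19* was picked by its number of matches. It lies inside the gene model (mm10, chr14:60963875-61046490, minus strand), not at its outer 5' end. *Tnfrsf19*, a TNF receptor family member, was at 38.1 and 32.1 TPM on day 6 and at 9.84 to 24.7 TPM in the clones (-1.19 ± 0.33, adjusted p = 0.0256), and it is 1 of the 55 lower genes of a chromosome 14 stretch described further on. Of 15 WNT targets and ligands, *Sp5* and *Wnt3a* were lower and none higher, and the median of -0.48 lay beside -0.51 in E14Tg2a day 8. The list had 0 calls without E14Tg2a day 6 replicate 2, without replicate 3 or in the fit on the 8 libraries alone, and 1 without ΔK9.1 replicate 2, ΔK9.2 replicate 2 or ΔK9.2 replicate 3.

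The 3 remaining lower genes had a higher mean in E14Tg2a on day 8 than on day 6. *Asb4*, a subunit of a ubiquitin ligase found in vascular progenitors, was at 31.1 and 29.6 TPM on day 6, at 3.19 to 13.6 TPM in the clones and at 23.9 to 49.1 TPM in E14Tg2a day 8. Clones were below every wild-type library of both days (-1.72 ± 0.38, adjusted p = 0.00666, or 0.114 and 0.0857 without replicate 2 and replicate 3 of day 6). *Myl7*, the atrial myosin light chain, was at 7.01 and 12.6 TPM on day 6, at 2.25 to 5.11 TPM in the clones and at 12.8 to 32.6 TPM in E14Tg2a day 8 (-1.15 ± 0.27, adjusted p = 0.0105). *Tsc22d1*, a leucine zipper protein of the TGF-β response, was at 187 and 167 TPM on day 6 and at 58.9 to 102 TPM in the clones (-1.28 ± 0.20, adjusted p = 0.000271). Its day 6 clone means of 56.3 and 57.6 TPM were as low, and it lies on chromosome 14 in the stretch described next. *Actc1*, cardiac alpha-actin, was at 20.9 and 24.5 TPM on day 6 and at 6.63 to 13.9 TPM in the clones (-1.10 ± 0.30, adjusted p = 0.0263), close to the 10.1 to 12.2 TPM of E14Tg2a day 8. Neither *Myl7* nor *Actc1* was called lower without E14Tg2a day 6 replicate 3 or in the fit on the 8 libraries alone, and the list they share had 1 lower gene without E14Tg2a day 6 replicate 2, ΔK9.1 replicate 1 or ΔK9.2 replicate 2. *Wnt6* (-1.19), *Six2* (-1.11) and *Gfra2* (-1.09), which is also in that stretch, completed the class. *Aqp3*, a channel for water and glycerol, was the 1 gene higher, at 0.644 and 1.24 TPM on day 6 and at 2.66 to 7.47 TPM in the clones, without overlap (1.51 ± 0.33, adjusted p = 0.00666, or 0.166 without replicate 2 of day 6).

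Part of the genes off the course lay side by side on chromosome 14. Between 50 and 80 Mb (mm10), 55 of 261 tested genes were lower than on day 6 (21.1%) and 0 higher, and these were 48 of the 114 genes lower and off the course, 4 past and 3 short. This stretch was known from earlier results of these data. Of its 156 genes averaging 5 TPM or more, 149 were below day 6, with a median of -0.841, whereas E14Tg2a day 8 stood at -0.0892. In 81 of all 16336 genes (0.496%) the 6 clone libraries lay below all 11 wild-type libraries of days 0 to 8, and 36 of these were in the stretch. In the other direction 69 genes (0.422%) lay above all 11. The count was 24 in the fit on the 8 libraries alone, 32 without E14Tg2a day 6 replicate 2 and 54 to 59 without any other single library. On day 0, before differentiation, the means of both clones were below E14Tg2a in all 55 lower genes but *Lcp1* and *Pcdh8*. *Med4*, for example, was then at 36.1 and 39.5 TPM in ΔK9.1 and ΔK9.2 against 72.8 TPM in E14Tg2a. For this stretch, the class off the course thus does not place the difference within differentiation. What sets this stretch apart was not tested.

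Among the decreases off the course without overlap, short noncoding RNAs ranked first by their listed values. Many of these values are 0, so the rank is uncertain. *Rpph1*, the RNA of RNase P (mm10, chr14:50807449-50807767), was at 15.4 and 7.43 TPM on day 6, listed at 0 in 5 clone libraries and at 1.70 TPM in ΔK9.2 replicate 2. It was called (adjusted p = 0.00207, or 0.105 without E14Tg2a day 6 replicate 2). An exon of *Ccnb1ip1* covers most of *Rpph1* on the same strand and can share its reads, E14Tg2a day 8 replicate 1 was also listed at 0, and the day 4 mean was 0.581 TPM, so no fold is given. *Gm26083* was at 409 and 66.5 TPM on day 6 and listed at 0 in all 6 clone libraries. It was also listed at 0 in 2 of 3 E14Tg2a libraries of day 8, so no fold is given. It lies within *Snhg20* on the same strand, which can share its reads, and the libraries were enriched for poly-A RNA. Its call was lost without E14Tg2a day 6 replicate 2 (adjusted p = 0.19).

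Of the 36 genes higher and off the course, the contrast of day 6 clones with E14Tg2a days 4 and 8 called 1 higher and 6 lower. *Cabp1*, a neuronal calcium-binding protein, was at 16.9 and 16.5 TPM in E14Tg2a day 6, at 33.5 to 88.2 TPM in the clones and at 12.9 to 20.3 TPM in E14Tg2a day 8. Every clone library was above every wild-type library of all 4 days, and the difference was 1.71 ± 0.29 (adjusted p = 0.000741). The day 6 clones held 33.1 and 32.6 TPM on average and were higher than E14Tg2a days 4 and 8 by 1.17 (adjusted p = 0.000434), as the 1 called higher. The 6 called lower in the day 6 clones include *Ddit3* and *Aldoc*, described next. *Tmem35b*, a small membrane protein gene, was at 1 and 1.17 TPM on day 6 and at 4.19 to 5.74 TPM in the clones (1.53 ± 0.24, adjusted p = 0.000238). E14Tg2a day 8, at 4.27 to 4.79 TPM, lay within the range of the clones. The end of its model overlaps *Zmym6*. *Ddit3*, the stress factor CHOP (0.93 and not called with the replicate block), *Aldoc* (0.99 and not called with it), a glycolytic aldolase, and *Pxn*, the focal adhesion protein paxillin, were also near E14Tg2a day 8, at 1.13, 1.04 and 1.03 from day 6 and at -0.10, -0.28 and 0.03 from E14Tg2a day 8. None of the 3 was called in the fit on the 8 libraries alone. *Ddit3* also lost its call without E14Tg2a day 6 replicate 2 or 3 or ΔK9.1 replicate 1, *Aldoc* without E14Tg2a day 6 replicate 2 or ΔK9.2 replicate 2, and *Pxn* without ΔK9.1 replicate 2 or ΔK9.2 replicate 2 or 3.

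*C230037L18Rik* and *C920021L13Rik* are annotated as antisense transcripts, and the counting used strand. *C230037L18Rik* was at 1.53 and 2.63 TPM on day 6 and at 3.6 to 13.3 TPM in the clones (1.73 ± 0.35, adjusted p = 0.00349, or 0.133 without E14Tg2a day 6 replicate 2). *C920021L13Rik* (1.76, adjusted p = 0.0149) and *Gm28048* (1.92, adjusted p = 0.0426) reached at most 6.17 and 6.16 TPM, and the model of *Gm28048* overlaps *B3gnt2* and *Commd1* on the same strand, so its value is uncertain. *C920021L13Rik* lost its call without either day 6 library, at 1.41 and 2.11, and *Gm28048* without any of 7 of the 8 libraries, at 1.77 to 1.99.

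Signalling and ectoderm lists held few changes. Of 12 genes of the retinoic acid response *Crabp2* (1.63), *Rarb* (1.27) and *Cyp26b1* (1.15) were higher, a carrier, a receptor and a degrading enzyme of retinoic acid. The list fell to 1 without E14Tg2a day 6 replicate 2 and to 0 without replicate 3. Of 13 BMP ligands and targets *Id2* rose by 1.47 (SE 0.27, adjusted p = 0.00137), from 33.4 and 21.4 TPM to 46.1 to 101 TPM, without overlap. Its call was lost without E14Tg2a day 6 replicate 3 and in the fit on the 8 libraries alone. None of 14 genes of FGF signalling and ERK feedback was called by limma (4 at an unadjusted p under 0.05), and the median was -0.39. Of 13 measured neural genes *Zic2* (-1.40) and *Fabp7* (-1.76), a lipid-binding protein of radial glia, were lower, and the defining markers *Sox1* and *Pax6* summed to 0.997 to 10.8 TPM in the clones against 2.30 and 2.66 TPM on day 6. Of 13 genes of neural crest and surface ectoderm *Tfap2a* (1.01) and *Snai2* rose and *Wnt6* fell, and *Ddx4*, a germ cell helicase, fell by 1.04 among 11 germ cell genes. Without E14Tg2a day 6 replicate 2 or 3 no neural and no neural crest gene was called. With the replicate block, *Tfap2a* (0.95) and *Ddx4* (-0.96) were under the fold threshold. *Ddx4* also lost its call without ΔK9.1 replicate 1, without ΔK9.2 replicate 1 and in the fit on the 8 libraries alone. Without both clone libraries that stood apart, 2 neural genes were higher and 2 lower, and 1 FGF gene was lower.

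Lists of growth and metabolism held few calls. Of 20 cholesterol synthesis genes none was called by limma, 9 had an unadjusted p under 0.05 and 14 were level, with a median of 0.27. None of 23 genes of DNA replication and mitosis was called (9 at an unadjusted p under 0.05), with *Cdk1* at 0.24 (interval 0.06 to 0.42) and *Pcna* at -0.15 (interval -0.47 to 0.17). Glycolysis (18 genes), amino acid stress (14), focal adhesion (26), epithelial junctions (17), heat shock (9), DNA methylation enzymes (12) and CDK inhibitors (14) held at most 1 call each, also with the replicate block, with medians between -0.12 and 0.34. Without both clone libraries that stood apart, focal adhesion held 3 higher genes, DNA methylation enzymes 2 lower, and epithelial junctions and CDK inhibitors 1 in each direction. Of 11 immune genes 4 were in the table, none called or at an unadjusted p under 0.05, and the defining markers *Ptprc*, *Tyrobp* and *Csf1r* had no values. Of 13 trophoblast genes 10 were in the table, *Elf5*, *Tpbpa* and *Prl3d1* were not, and *Eomes*, shared with the streak, was the 1 called. Without both clone libraries that stood apart, 2 trophoblast genes were higher and 1 lower.

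Each clone was also set against day 6 alone. ΔK9.1 differed from E14Tg2a day 6 in 384 genes (2.35%), 221 higher and 163 lower, and ΔK9.2 in 253 (1.55%), 84 higher and 169 lower, in comparisons that share the day 6 libraries. Between ΔK9.1 and ΔK9.2 on day 8, limma called 0 genes (0%), with 990 at an unadjusted p under 0.05. *Pou5f1* was at -1.55 in ΔK9.1 and -1.16 in ΔK9.2, *Cer1* at -3.38 and -3.58, *Eomes* at -2.54 and -1.98, *Hoxa9* at 2.58 and 2.23, and *Grb10* at 2.71 and 1.41.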

How the data were processed

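Stranded, poly-A enriched, paired-end RNA-seq libraries were aligned by the authors to mm10 with STAR and quantified with RSEM, which used the strand of the reads; versions are not given in the sources used here. The deposited TPM values, computed by the authors with RSEM per library, were used as they stand. Every gene in the table averaged at least 1 TPM in 1 of the lines and days, so lower genes have no values here. TPM keeps no depth, so counting error is unknown. By the methods, outliers in a principal component analysis were left out before TPM were calculated, and it is not stated what these outliers were. The deposited fold changes and FDR from DESeq2 hold the authors' own comparisons and were not used.

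Values were transformed to log2(TPM + 1) and fitted with limma 3.58.1 (R 4.3.3), 1 mean per line and day, with an intensity trend and no filter. Plots were drawn with matplotlib 3.10.9 (Python 3.11.15). The fit was tested on simulated data. Named genes were *Nanog* and 11 genes the study follows, the 5 largest calls without overlap per class and direction, and up to 3 called members per list and direction (2 by level where none was called). Members and lists were chosen with earlier results of these data known. The lines were differentiated in parallel, and the replicate number was taken to mark the assay, which the labels do not state. Deviations of same-numbered clone and day 6 libraries from their group means gave r = 0.22, 0.27, 0.16 and 0.12 across genes. With 2 day 6 libraries their deviations mirror each other, so these values are not independent. Replicate 1 has no day 6 partner, and ΔK9.1 replicate 1 gave 0.11 with E14Tg2a day 6 replicate 2. Positions are from GENCODE M21, in which 98.4% of the genes matched by name, and promoters from RefSeq GRCm38.p6, in which 11453 matched. Alternatives were the pseudocount, filters, scaling, block, trend, libraries fitted, course and each library left out.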

Additional observations from a re-analysis of the deposited data

Results flagged for a closer look

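In each of 38 named genes, the gap of the highest or lowest of the 6 clone libraries to its nearest neighbour was divided by the range of the group and set against Dixon's critical value for 6 samples, which chance passes in about 1 in 20 groups. It was passed by 5 genes. *Eomes* stood at 59.6 TPM in ΔK9.2 replicate 1, a gap of 0.704 of the range, and *Lhx1* at 17.1 TPM in the same library, a gap of 0.628. *Gm28048* was lowest there, at 0.249 TPM (0.699). *C920021L13Rik* was lowest in ΔK9.1 replicate 2, at 0.825 TPM (0.719). *Rpph1* was at 1.70 TPM in ΔK9.2 replicate 2 and listed at 0 in the other 5 libraries (a gap of 1 range). ΔK9.2 replicate 1 was also the clone library nearest to day 6 over the rising genes, and its part in these values was not tested.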

How the results depend on the processing

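Under 20 alternative settings, 87 counts stayed within 1.5 times their value and 31 did not, and of the values of 38 named genes 636 kept direction and call, 65 lost the call, 6 gained it and 11 changed sign. Fitted on the 8 libraries alone, 4 genes were higher, 45 lower, 8 past, 0 short and 41 off the course, and 46 of the called genes were called in both fits. Fitted on days 6 and 8 with E14Tg2a day 4, 66 were higher, 81 past and 3 short. With ΔK9.2 alone, 84 were higher and 107 past. With the course from day 0, 26 genes were short and 2752 level. With a pseudocount of 0.1, 226 were off the course. With a mean of at least 5 TPM, 1063 were level, as fewer genes were tested. The cause of the other shifts was not tested. Leaving out 1 library at a time gave 54 to 279 genes higher, 93 to 229 lower, 39 to 322 past, 4 to 17 short, 80 to 203 off the course and 1162 to 1925 level. The lowest of each came without E14Tg2a day 6 replicate 2 or 3, which leaves 1 library that is assumed to vary like the other groups. Leaving out ΔK9.1 replicate 3 and ΔK9.2 replicate 1 together, chosen after seeing the data, gave 387 higher and 404 past.

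With the replicate block, the pairing by replicate number, 212 genes were higher, 226 lower, 246 past, 13 short, 179 off the course and 1840 level. Of the called genes, 330 kept their call. Of the 38 named genes it changed the call of *Dnmt3b* alone. *Prdm14* changed sign to -0.11 with the block, -0.0139 with a pseudocount of 0.1, -0.0302 with median ratio scaling, -0.0409 in ΔK9.1 alone, -0.0816 without E14Tg2a day 6 replicate 3, -0.114 without ΔK9.1 replicate 1, -0.0654 without ΔK9.2 replicate 1 and -0.0098 without ΔK9.2 replicate 2, in a range of -0.114 to 0.114 over the left-out libraries. *Gata6* changed to 0.068 without ΔK9.1 replicate 3 (range -0.53 to 0.068 over the left-out libraries) and to 0.147 without both libraries named above, and *Pdgfra* to 0.0142 without both. None of these values was called. Median ratio scaling moved the median of all genes from 0.05 to 0.01. TPM gives no read depth, so the precision of low genes cannot be set.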
